A study of Mus musculus with 4 samples.

Results

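The receptor by peptide interaction is, for each gene, the M9 minus K8 difference in T cells with the TRP1high T cell receptor (TCR), minus the same difference in T cells with the TRP1low TCR. It was computed on the deposited log2 values of all 4 libraries for the 10528 genes, of 16338 in all, with at least 100 normalized counts in at least 1 library. A positive interaction means that M9 stood higher relative to K8 in TRP1high than in TRP1low. The libraries were TRP1high with M9, TRP1high with K8, TRP1low with M9 and TRP1low with K8, all from mouse T cells held for 48 h with B cells loaded with the named peptide and then sorted away from them for total RNA. TRP1 stands for tyrosinase-related protein 1, which pigment cells and melanomas make, and the study concerns peptides that bind MHC class I differently and the effector responses of CD8 T cells to them. Mouse strain, age, peptide dose and the number of animals or cell lines behind each library were not stated in the labels used here. Each group held 1 library, so 4 values are spent on 4 quantities, nothing is left to estimate error from, and no test was made. Intervals given with interactions and folds are 95% intervals for read counting only, and do not cover the spread between cultures.

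A TCR binds a peptide held by an MHC class I molecule on another cell, and the strength and length of that contact set how strongly the T cell is driven. Early signals induce transcription factors and cytokine genes such as Il2 and Ifng. Later, interleukin 2 acts through its receptor and STAT5, and growth signals raise nutrient uptake, glycolysis and lipid synthesis, while interferons induce a separate set of antiviral genes through a complex that contains IRF9.

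Estimated reads came to 41.5 M for TRP1high with M9, 40.5 M for TRP1high with K8, 40.3 M for TRP1low with M9 and 29.6 M for TRP1low with K8, which was the shallowest. Cd8a, a chain of the CD8 coreceptor, had 28452 and 20552 normalized counts in TRP1high with M9 and K8, and 28938 and 36073 in TRP1low with M9 and K8. Cd4 was at most 25.5 in any library. All 11 CD8 T cell markers passed the filter, and none had an interaction of at least 1 in size. Markers of other cell types differed between libraries.

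The plot of the peptide difference in TRP1high against that in TRP1low shows the sorting of genes. M9 and K8 were at least 2-fold apart for 669 genes in TRP1high (6.35%) and for 1132 in TRP1low (10.8%). In TRP1high 361 genes were higher (3.43%) and 308 lower (2.93%) with M9, and in TRP1low 610 were higher (5.79%) and 522 lower (4.96%). A difference in TRP1high alone was seen for 181 higher genes (1.72%) and 144 lower genes (1.37%). In TRP1low alone it was seen for 443 higher (4.21%) and 345 lower genes (3.28%). Both receptors shared 143 higher genes (1.36%) and 140 lower genes (1.33%). Opposite directions were rare: 37 genes were higher with M9 in TRP1high and lower in TRP1low (0.351%), and 24 were lower in TRP1high and higher in TRP1low (0.228%). The remaining 9071 genes (86.2%) were under 2-fold apart in both. Across the 10528 genes, which are not independent replicates, the peptide differences in the separate pairs of libraries were related by Pearson's r of 0.34 and a Spearman rank coefficient of 0.35.

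**Figure D1:**
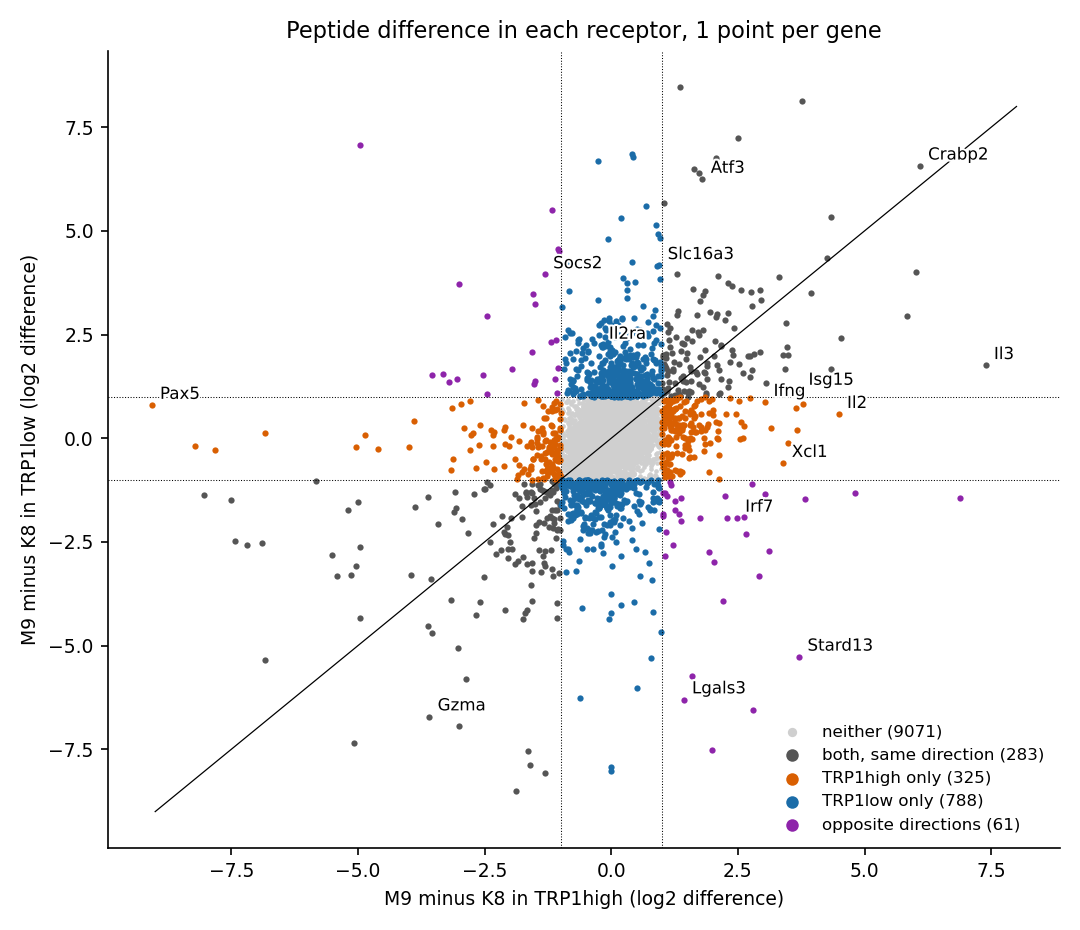
M9 minus K8 log2 difference in TRP1high (horizontal) and in TRP1low (vertical), 1 point per gene for 10528 genes, coloured by class. Dotted lines mark 2-fold, the diagonal marks equal differences, and a gene's interaction is its horizontal minus its vertical value: TRP1low-only genes (788) outnumber TRP1high-only genes (325).

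The interaction was at least 1 for 574 genes (5.45%) and at most -1 for 643 (6.11%), together 1217 genes (11.6%). It was below 0 for 5886 genes (55.9%). Its median over all genes was -0.06, its quartiles were -0.34 and 0.24, and 335 genes reached 2 in size. The limit of 1 cuts through a continuous range, with 195 genes at 0.9 to 1 in size and 197 at 1 to 1.1. Of the 1113 genes that were 2-fold apart in 1 receptor alone, 744 also had an interaction of at least 1 in size, and in the other 369 the peptide differences of the receptors were less than 1 apart. The filter cut a continuous range too, with 107 genes at 100 to 110 normalized counts and 124 just outside it at 90 to 100.

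To see which library carries each interaction, the 4 values of a gene were split at their largest gap. A single library stood apart from the other 3 for 997 of the 1217 genes (81.9%). TRP1low with K8 was that library for 557 genes (45.8%), below the others for 340 and above them for 217. Over all 10528 genes, whatever their interaction, 1 library stood apart for 7163 (68%), and it was TRP1low with K8 for 2953 (28%), more often than any other library. TRP1high with M9 stood apart for 140 genes (11.5%), TRP1high with K8 for 154 (12.7%) and TRP1low with M9 for 146 (12%). TRP1low with K8 was the low library for 52.9% of the 643 genes with an interaction of at most -1 and the high library for 37.8% of the 574 with one of at least 1. A crossed split, with TRP1high M9 and TRP1low K8 on one side and the other 2 libraries opposite, was found for 109 genes. With no second library of TRP1low with K8, what belongs to that receptor and peptide and what belongs to that culture, sort or library cannot be told apart. The receptors themselves were at least 2-fold apart for 995 genes with M9 (9.45%) and for 1650 with K8 (15.7%).

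**Figure D2:**
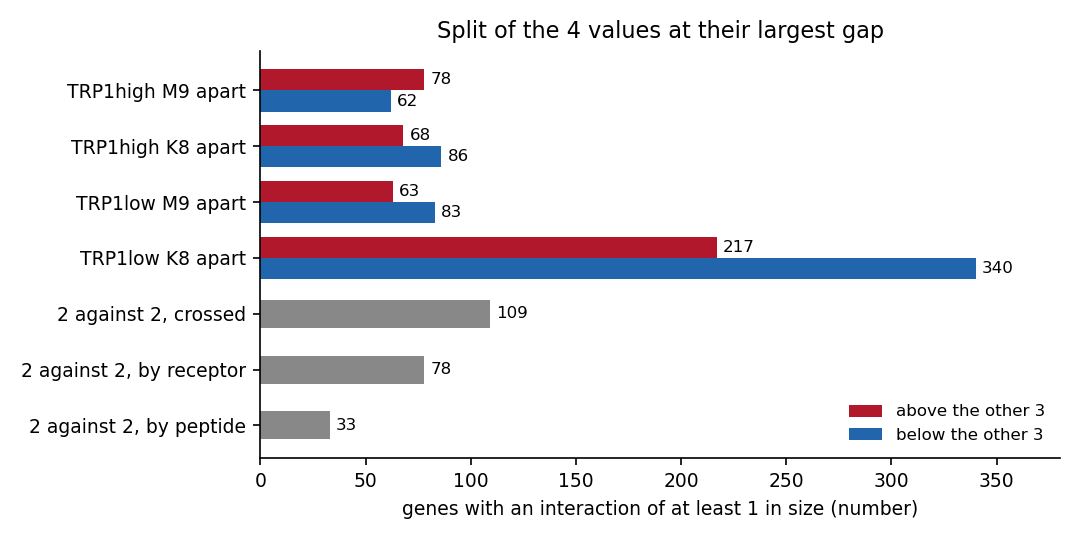
Number of genes, of 1217 with an interaction of at least 1 in size, for which a library lies above or below the other 3 or the libraries split 2 against 2. TRP1low with K8 is below the others for 340 genes and above them for 217, more than any other library.

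Several cytokine genes differed between the peptides mainly in TRP1high, and in most of them the low library was TRP1high with K8. Il2, interleukin 2, the T cell growth factor (chromosome 3, 37120523 to 37125959, mm10), had 156 and 5.99 normalized counts in TRP1high with M9 and K8, and 96.5 and 64.3 in TRP1low with M9 and K8. The 6 reads of TRP1high with K8 stand alone at the low end, and the other 3 libraries lie within a few fold of each other. M9 was 26.1-fold above K8 in TRP1high (11.7 to 72.2) and 1.5-fold above it in TRP1low (1.05 to 2.18), an interaction of 3.91 (2.63 to 5.19). Xcl1, the chemokine lymphotactin, which draws cross-presenting dendritic cells (chromosome 1, 164931644 to 164935527), had 2528 and 239 normalized counts in TRP1high with M9 and K8, and 3027 and 4575 in TRP1low with M9 and K8. It was 10.6-fold higher with M9 in TRP1high (9.28 to 12.2) and 1.51-fold lower in TRP1low (1.44 to 1.59), so the direction turned, with an interaction of 4.0 (3.79 to 4.20). Again TRP1high with K8 was the library set apart from the rest. Ifng, interferon gamma (chromosome 10, 118441046 to 118445892), had 6839 and 829 normalized counts in TRP1high with M9 and K8, and 13898 and 7609.8 in TRP1low with M9 and K8. M9 was 8.25-fold above K8 in TRP1high (7.68 to 8.88) and 1.83-fold above it in TRP1low (1.77 to 1.88). Both TRP1low libraries thus held more Ifng than TRP1high with M9, and the interaction was 2.17 (2.06 to 2.29).

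Il3, interleukin 3 (chromosome 11, 54265303 to 54267277), had 166 normalized counts in TRP1high with M9 and 0 in TRP1high with K8, and 67.1 and 19.1 in TRP1low with M9 and K8. Against a floor of 3 reads in the empty library, M9 was at least 55.5-fold above K8 in TRP1high, and it was 3.51-fold above it in TRP1low (1.95 to 6.77). Ccl3, an inflammatory chemokine, was higher with M9 in both receptors, by 3.44 in TRP1high and 1.68 in TRP1low on the log2 scale, an interaction of 1.76. Its neighbour Ccl4 differed by 2.82 and 2.03, which left 0.79. Lta and Lif, in contrast, separated M9 from K8 in TRP1low. Lta, lymphotoxin alpha (chromosome 17, 35203165 to 35205351), had 5161 and 8084 normalized counts in TRP1high with M9 and K8, and 9759 and 1986 in TRP1low with M9 and K8. M9 was 1.57-fold below K8 in TRP1high and 4.91-fold above it in TRP1low, with TRP1low with K8 the low library and an interaction of -2.94 (-3.04 to -2.85). Lif, a cytokine of the interleukin 6 family, had an interaction of -2.22. Ccl1, a chemokine that binds CCR8, had 3 reads or fewer in 3 libraries and 133 in TRP1low with K8, where M9 was at least 57.7-fold lower. Of 25 measured effector cytokine and chemokine genes, 16 passed the filter: 7 had an interaction of at least 1 (5.45% of all genes did) and 3 of at most -1 (6.11%), with a median of 0.78 against -0.06 over all genes. At 500 normalized counts or more in 1 library the list's median was -0.25, so its sign rested on members of low count.

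The transcription factors and feedback regulators that TCR signals induce had more positive than negative interactions too. Fos, an AP-1 subunit, had 135 and 37.3 normalized counts in TRP1high with M9 and K8, and 117 in each TRP1low library. The 3 libraries other than TRP1high with K8 were close together, and the interaction was 1.83 (1.17 to 2.49). Ier3, an immediate early gene, had an interaction of 1.81 (1.45 to 2.17), Rel, an NF-kB subunit, 1.26 (1.14 to 1.38), and Egr3, an early growth response factor, 1.08 (0.90 to 1.27). In all of these TRP1high with K8 was the low library. Tnfaip3, the NF-kB inhibitor A20, had 733 and 413 normalized counts in TRP1high with M9 and K8, and 787 and 2148 in TRP1low with M9 and K8, where K8 was the high library, and its interaction was 2.28. Irf4, a transcription factor whose level follows TCR signal strength, had 24319 and 17504 normalized counts in TRP1high with M9 and K8, and 25719 and 7678 in TRP1low with M9 and K8. Here TRP1low with K8 was the low library, and the interaction was -1.27 (-1.32 to -1.22). Of 36 such genes past the filter, 10 had an interaction of at least 1 (5.45% of all genes did) and 4 of at most -1 (6.11%). Those 4 were Spry1, Nr4a3, Fosl1 and Irf4, and the median of the 36 was 0.40. TRP1high with K8 lay below the other 3 libraries in 7 of the 10 genes at or over 1, against 86 of all 574 such genes. TRP1low with K8 lay below the others in all 4 genes at or under -1, against 52.9% of all 643 such genes.

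Among the lead genes with a peptide difference in TRP1high alone, those lower with M9 included genes of B cells and antigen presenting cells. Klri2, a killer lectin-like receptor chain, had 133 and 11.0 normalized counts in TRP1high with M9 and K8, and 12.6 and 13.7 in TRP1low with M9 and K8. TRP1high with M9 was high and the other 3 were alike, 12.1-fold between the TRP1high libraries (6.54 to 24.8), with an interaction of 3.59. Impg2, a proteoglycan known from the retina, had 118 reads in TRP1high with M9 and none in TRP1high with K8, at least 39.0-fold, and at most 2 reads in TRP1low. By its deposited values, with a TRP1low difference of -1.44 that lies within the floor, it counts among the 37 opposite genes. On the lower side Pax5, the B cell lineage factor, had 0 normalized counts in TRP1high with M9 and 535 in TRP1high with K8, at least 180.4-fold lower with M9, and 17.5 and 9.61 in TRP1low with M9 and K8. Exosc6, an RNA exosome subunit, had 0 and 224 normalized counts in TRP1high with M9 and K8, and 321 and 389.8 in TRP1low with M9 and K8. For Exosc6 the empty library, TRP1high with M9, was the exception among libraries that all held the transcript. Fbln2, an extracellular matrix protein, had 7.26 and 239 normalized counts in TRP1high with M9 and K8, and 47.0 and 44.4 in TRP1low with M9 and K8. Wdfy4, a gene of antigen presenting cells, had 4.84 and 85.5 in TRP1high and 412 and 308 in TRP1low, in the same order of peptides. Without Ighm, B cell markers summed to 2004 and 5381 normalized counts in TRP1high with M9 and K8, and to 2009 and 3742 in TRP1low with M9 and K8, and the part of B cell RNA in the lower genes was not tested.

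A larger group of genes had nearly the same level with M9 and K8 in TRP1high and lower levels with K8 in TRP1low. Il2ra, the high affinity chain of the interleukin 2 receptor (chromosome 2, 11642807 to 11693193), had 31658 and 36585 normalized counts in TRP1high with M9 and K8, and 24817 and 5216 in TRP1low with M9 and K8. M9 was 1.16-fold below K8 in TRP1high (1.14 to 1.17) and 4.76-fold above it in TRP1low (4.60 to 4.92), an interaction of -2.46 (-2.51 to -2.40). TRP1low with K8 was thus the low library among 3 high ones. Socs2, a STAT5-induced suppressor of cytokine signalling (chromosome 10, 95385362 to 95417180), had 1018 and 2524 normalized counts in TRP1high with M9 and K8, and 1406 and 90.0 in TRP1low with M9 and K8. It was 2.48-fold lower with M9 in TRP1high (2.30 to 2.67) and 15.6-fold higher in TRP1low (12.2 to 20.2), one of the opposite genes, with an interaction of -5.26. Cish, the STAT5-induced relative of Socs2, had 4374 and 4743 normalized counts in TRP1high with M9 and K8, and 4618 and 1252 in TRP1low with M9 and K8, an interaction of -2.0. Bcl2, the survival factor, had an interaction of -2.13, and the kinase gene Pim1 one of -1.46. Of 25 interleukin 2 and STAT5 target genes, all past the filter, 13 had an interaction of at most -1 (52.0%, against 6.11% of all genes) and 0 of at least 1, with a median of -1.34 against -0.06. TRP1low with K8 was below the other 3 libraries in 12 of the 13, as it was in 340 of all 643 such genes. Il2 itself did not follow them, since its low library was TRP1high with K8.

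The lead genes of this class, higher with M9 in TRP1low alone, were Fzd7, Smtnl2, Gcc2 and Eif4ebp3. Fzd7, a Wnt receptor, had 186 and 163 normalized counts in TRP1high with M9 and K8, and 202 and 4.10 in TRP1low with M9 and K8, a 49.3-fold difference in TRP1low with an interval of 16.6 to 241, since K8 had 3 reads. Gcc2, a Golgi coiled-coil protein, had 256 and 505 in TRP1high with M9 and K8 and 249 and 26.8 in TRP1low with M9 and K8, an interaction of -4.14 (-4.83 to -3.45). Smtnl2, a smoothelin-like protein, and Eif4ebp3, which restrains translation initiation, had 0 reads in TRP1low with K8 and were at least 24.9-fold and 28.1-fold higher with M9 there. In all 4 genes TRP1low with K8 lay below the other 3 libraries.

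The plot of levels by library shows these patterns side by side. In each panel the 2 lines would be parallel if there were no interaction.

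**Figure D3:**
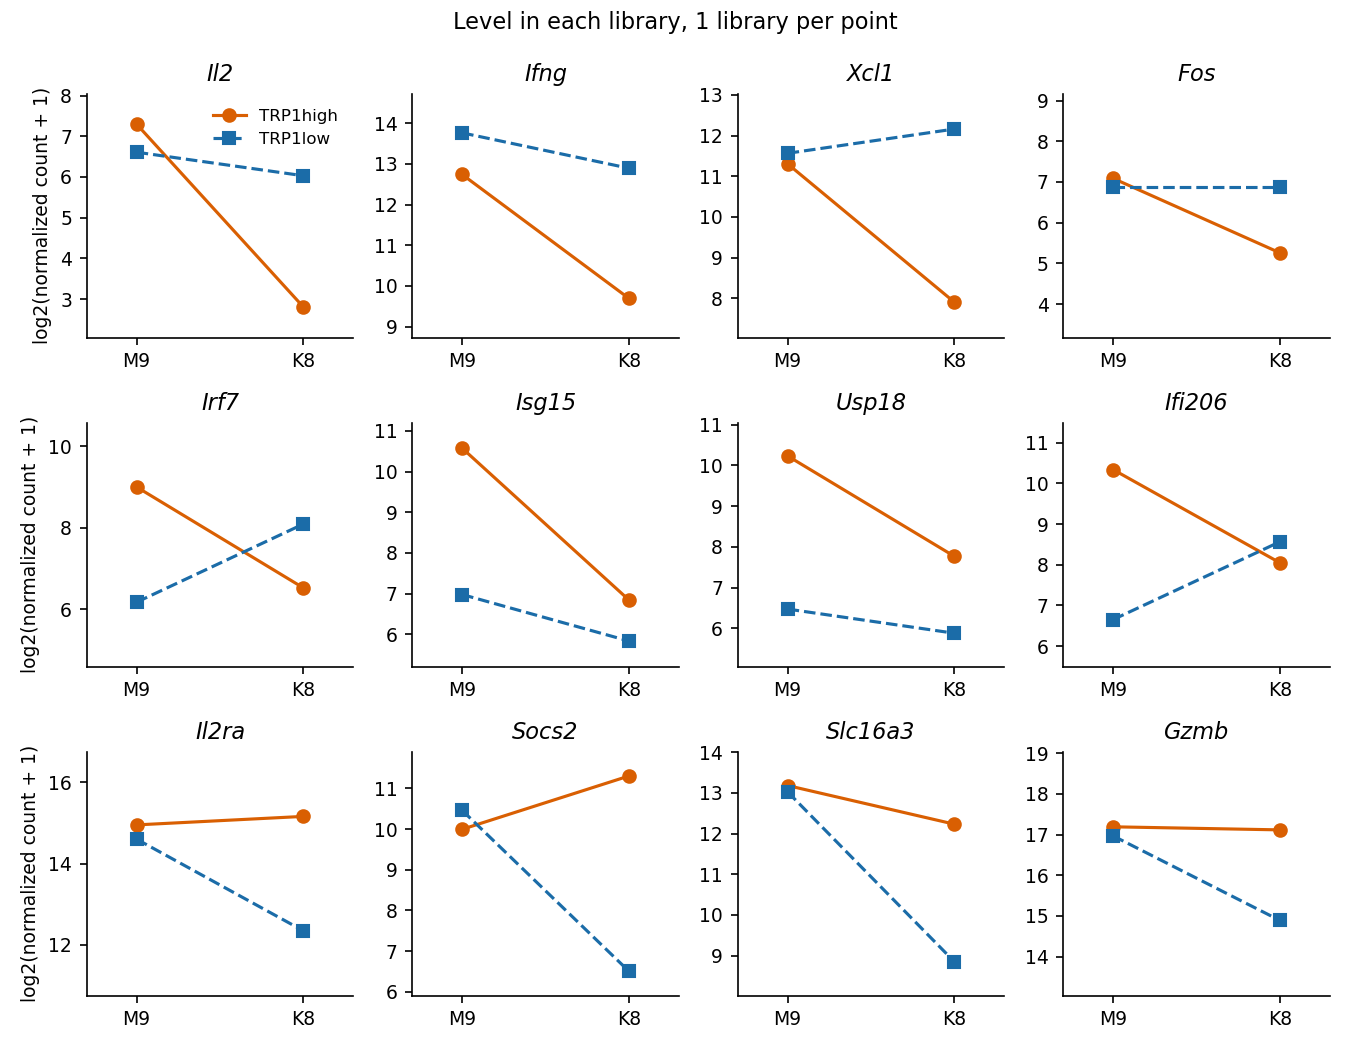
Level of 12 genes as log2(normalized count + 1) with M9 (left) and K8 (right) in TRP1high (circles, full line) and TRP1low (squares, dashed line), 1 library per point. Il2, Ifng, Xcl1 and Fos are low in TRP1high with K8, and Isg15 and Usp18 are high in TRP1high with M9. Irf7 and Ifi206 are more than 2-fold higher with M9 in TRP1high and more than 2-fold lower in TRP1low. Il2ra, Socs2, Slc16a3 and Gzmb are low in TRP1low with K8.

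Many glycolysis and lipid synthesis genes were also lowest in TRP1low with K8. By the largest gap this held for 22 of 33 and 24 of 33, against 1520 of all 10528 genes. Still, 21 of 33 and 27 of 33 were under 2-fold apart in both receptors, beside 86.2% of all genes. Slc16a3, the lactate exporter MCT4 (chromosome 11, 120948480 to 120960868), had 9271 and 4802 normalized counts in TRP1high with M9 and K8, and 8322 and 461 in TRP1low with M9 and K8. M9 was 1.93-fold above K8 in TRP1high (1.86 to 2.0) and 18.1-fold above it in TRP1low (16.2 to 20.2), an interaction of -3.22. Only TRP1low with K8 was far from the others. Bnip3, a hypoxia-induced mitophagy receptor, had 3515 and 3008 normalized counts in TRP1high with M9 and K8, and 2782 and 379 in TRP1low with M9 and K8, an interaction of -2.65. The brain-type aldolase gene Aldoc had an interaction of -2.71 and P4ha2, a collagen prolyl hydroxylase, one of -2.08. Of 33 glycolysis and hypoxia-responsive genes past the filter, 8 had an interaction of at most -1 (6.11% of all genes did) and 0 of at least 1 (5.45%). Their median was -0.52, and 29 were below 0, against 55.9% of all genes. TRP1low with K8 lay below the other 3 libraries in all 8, against 52.9% of all genes at or under -1.

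Scd1, the stearoyl-CoA desaturase that makes monounsaturated fatty acids, had 3616 and 2896 normalized counts in TRP1high with M9 and K8, and 2016 and 191 in TRP1low with M9 and K8, an interaction of -3.07 (-3.33 to -2.81). Fasn, the fatty acid synthase, had 27303 and 32991 normalized counts in TRP1high with M9 and K8, and 18623 and 8106 in TRP1low with M9 and K8, an interaction of -1.47. The desaturase genes Scd2 and Fads2 had interactions of -1.47 and -1.75. Of 33 cholesterol and fatty acid synthesis genes, 7 had an interaction of at most -1 (6.11% of all genes did) and 0 of at least 1 (5.45%). Their median was -0.55 and 31 were below 0, against 55.9% of all genes. TRP1low with K8 was the low library in all 7, against 52.9% of all genes at or under -1. The integrated stress response, which raises ATF4 target genes when amino acids are short or proteins misfold, had 7 of 30 genes at or under -1 and 0 at or over 1, with a median of -0.35. Over all genes these shares were 6.11% and 5.45%. In this list 25 genes were below 0 and 5 above, and 23 of the 30 were under 2-fold apart in both receptors. Atf3, a stress-induced transcription factor of that group (chromosome 1, 191170296 to 191218039), had 2929.9 and 841 normalized counts in TRP1high with M9 and K8, and 979.9 and 11.9 in TRP1low with M9 and K8. It was higher with M9 in both receptors, 3.48-fold in TRP1high (3.23 to 3.77) and 82.6-fold in TRP1low (41.7 to 175), so its interaction of -4.45 was one of size and not of direction. The amino acid transporter Slc7a3 had an interaction of -2.30 and the pseudokinase gene Trib3 one of -1.63. Other members of the list were under the limit, such as Atf4 (-0.86), Asns (-0.67), Psat1 (-0.26) and Ddit3 (0.27). Of the ribosome biogenesis genes 2 of 29 (Nolc1 and Ncl) were at or under -1 and 0 at or over 1, near the 6.11% of all genes at or under -1. Their median was -0.36, and 27 were below 0, against 55.9% of all genes.

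Among cytotoxic genes the members went different ways. Gzmb, granzyme B (chromosome 14, 56258838 to 56262260), had 149629 and 142017 normalized counts in TRP1high with M9 and K8, and 128159.9 and 30410 in TRP1low with M9 and K8. M9 was 1.05-fold above K8 in TRP1high and 4.21-fold above it in TRP1low (4.15 to 4.28), an interaction of -2.0, with TRP1low with K8 low. Gzma, granzyme A, had 5.97 and 82.8 normalized counts in TRP1high with M9 and K8, and 7.38 and 876 in TRP1low with M9 and K8, so K8 was the high peptide in both receptors and the interaction was 3.12 (1.51 to 4.73). Fasl, the Fas ligand, was higher with M9 in both, with an interaction of -1.68, and Stx11, a syntaxin of granule release, had 1.39. Of 17 such genes 2 were at or over 1 (5.45% of all genes were) and 2 at or under -1 (6.11%), with a median of 0.23.

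The genes with the highest level in TRP1low with K8 included receptors of resting or migrating cells. S1pr1, the receptor that lets T cells leave lymph nodes, had 132 and 430.2 normalized counts in TRP1high with M9 and K8, and 139 and 2609.6 in TRP1low with M9 and K8. Both M9 libraries were low and TRP1low with K8 was the highest, an interaction of 2.51 (2.14 to 2.89). Itgae, the integrin CD103, had 22.7 and 78.9 normalized counts in TRP1high with M9 and K8, and 32.5 and 688 in TRP1low with M9 and K8, an interaction of 2.61. Ccr9, a gut homing receptor, was 2-fold or more lower with M9 in both, with an interaction of 1.18. Tnfsf4, the OX40 ligand, had 275 and 197 normalized counts in TRP1high with M9 and K8, and 191 and 1220.0 in TRP1low with M9 and K8, an interaction of 3.15 (2.80 to 3.5). Among chemokine receptor and adhesion genes, 6 of 20 were at or over 1 (5.45% of all genes) and 2 at or under -1 (6.11%), with a median of 0.54. In 5 of the 6 at or over 1 TRP1low with K8 lay above the other 3 libraries, as it did in 37.8% of all 574 such genes. By the largest interaction after floors, the lead genes lower with M9 in TRP1low alone were Asb2, an ankyrin repeat protein (9.35 and 4.97 normalized counts in TRP1high with M9 and K8, 4.96 and 233 in TRP1low with M9 and K8), Plb1, a phospholipase, and the globin genes Hba-a2 and Hbb-bs. Plb1 had at most 3 reads in TRP1high, where a deposited difference of -1.31 puts it among the genes lower in both, and 0 reads in TRP1low with M9 against 269.7 normalized counts in TRP1low with K8.

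Those globin genes were near empty in the other libraries. Hba-a2 had 0 reads in 3 libraries and 178 in TRP1low with K8, at least 77.4-fold lower with M9 in that receptor, and Hba-a1, its near-identical copy, shares reads with it, so that their split is uncertain. The summed level of 6 erythroid markers was 18.4 and 16.2 normalized counts in TRP1high with M9 and K8, and 11.0 and 616 in TRP1low with M9 and K8, and 3 of the 6 were at 0 in each library other than TRP1low with K8. This stands beside every count in which TRP1low with K8 is the high library, and its part in them was not tested. In bulk RNA, fewer cells of a type and less RNA per cell cannot be told apart.

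The opposite classes were led by genes of varied roles. Stard13, a GTPase activating protein (chromosome 5, 151037510 to 151233836), had 87.3 and 5.73 normalized counts in TRP1high with M9 and K8, and 9.61 and 408 in TRP1low with M9 and K8. The high libraries were crossed, and M9 was 15.2-fold above K8 in TRP1high (6.42 to 40.7) and 42.5-fold below it in TRP1low (22.5 to 95.7), an interaction of 8.98 (7.45 to 10.51). Lgals3, the lectin galectin 3, had 132 and 48.5 normalized counts in TRP1high with M9 and K8, and 12.5 and 1059 in TRP1low with M9 and K8, an interaction of 7.73 (6.78 to 8.68). Itga2b, the platelet integrin chain CD41, had 17.2 and 1.63 normalized counts in TRP1high with M9 and K8, and 0.605 and 149 in TRP1low with M9 and K8. Its TRP1high difference rests on 2 reads with K8 (10.6-fold, 2.0 to 75.2) and its TRP1low difference on 1 read with M9 (247-fold lower, 25 to 5665). Ccr8, a chemokine receptor, had 30.7 and 3.99 normalized counts in TRP1high with M9 and K8, and 27.3 and 139.5 in TRP1low with M9 and K8, an interaction of 4.98.

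In the reverse class Zbtb38, a methyl-CpG binding zinc finger protein, had 286 and 591 normalized counts in TRP1high with M9 and K8, and 1245 and 51.6 in TRP1low with M9 and K8. It was 2.07-fold lower with M9 in TRP1high (1.79 to 2.39) and 24.1-fold higher in TRP1low (17.3 to 34.0), an interaction of -5.61. Tgm2, a transglutaminase, had 544 and 1114 normalized counts in TRP1high with M9 and K8, and 252 and 10.1 in TRP1low with M9 and K8, an interaction of -5.54. Both genes sat just past 2-fold in TRP1high, so their place in this class is closer to the limit than the interaction alone tells. Pkib, a protein kinase A inhibitor, had -6.68 and Capn5, a calpain, had -5.40. Stc2, a stress-induced secreted glycoprotein, was 2.87-fold lower with M9 in TRP1high and 12.8-fold higher with M9 in TRP1low, where 2 reads with K8 gave an interval of 3.02 to 103.

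Where both receptors shared a direction, many genes had no interaction of note. Crabp2, a retinoic acid carrier (chromosome 3, 87948666 to 87953376), had 1507 and 21.1 normalized counts in TRP1high with M9 and K8, and 1644 and 16.3 in TRP1low with M9 and K8. The levels split by peptide with hardly any difference between receptors, and the interaction was -0.47 with an interval of -1.5 to 0.55 that takes in 0. Rasgef1b, a Ras exchange factor, had 651 and 33.0 normalized counts in TRP1high with M9 and K8, and 516 and 24.5 in TRP1low with M9 and K8, an interaction of -0.08 (-0.93 to 0.76). Such intervals still allow a modest interaction in either direction. In the shared classes, 46 of 143 higher genes and 66 of 140 lower genes had an interaction of at least 1 in size, beside 11.6% of all genes. In those genes the direction was shared and the size was not, while the other 97 and 74 were under 1. Both classes take only genes with large differences on the same values, so a larger share than over all genes is no separate result.

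Interferon-stimulated genes had more members with a positive interaction past the limit than any other of the 17 lists, and TRP1low with K8 was the library apart in none of them. Of 40 measured genes 33 passed the filter: 17 (51.5%) had an interaction of at least 1, against 5.45% of all genes, 0 had one of at most -1, and the median was 1.1 against -0.06. Among the 17, TRP1high with M9 lay above the other 3 libraries for 7, TRP1low with M9 lay below them for 5, the split was crossed for 3 and by receptor for 2. M9 was above K8 in TRP1high for all 17, while in TRP1low it was below K8 for 11 and above it for 6. The limit of 1 itself favours M9 above K8 in TRP1high and below it in TRP1low, so these directions are no separate result. The 33 genes past the filter had 25 interactions above 0 and 8 below 0. Over all 574 genes with an interaction of at least 1, TRP1high with M9 lay above the other libraries for 78 (13.6%) and TRP1low with M9 below them for 83 (14.5%). Isg15, the ubiquitin-like modifier (chromosome 4, 156199424 to 156200818), had 1523 and 114 normalized counts in TRP1high with M9 and K8, and 125 and 56.1 in TRP1low with M9 and K8. M9 was 13.4-fold above K8 in TRP1high (11.1 to 16.3) and 2.23-fold above it in TRP1low (1.55 to 3.26), an interaction of 2.59 (2.01 to 3.17). Usp18, the protease that removes ISG15, had 1203 and 217 normalized counts in TRP1high with M9 and K8, and 87.7 and 57.8 in TRP1low with M9 and K8. Oas3, which makes short oligoadenylates on sensing double-stranded RNA, had 3481 and 867 in TRP1high and 384 and 259.9 in TRP1low, in the same order of peptides. All 3 were highest in TRP1high with M9. Xaf1, an interferon-induced apoptosis factor, had an interaction of 3.12, Trim30a, a TRIM family protein, 1.99, and the nucleotide kinase gene Cmpk2 1.65.

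Irf7, the transcription factor that amplifies type I interferon (chromosome 7, 141262706 to 141266481), had 512 and 91.1 normalized counts in TRP1high with M9 and K8, and 71.2 and 272 in TRP1low with M9 and K8. The high libraries were crossed: M9 was 5.62-fold above K8 in TRP1high (4.50 to 7.12) and 3.81-fold below it in TRP1low (2.88 to 5.10), an interaction of 4.39 (3.88 to 4.90). Ifih1, the RNA sensor MDA5, went the same way with 400.5 and 178 normalized counts in TRP1high with M9 and K8, 219.7 and 459 in TRP1low with M9 and K8, and an interaction of 2.22. Ddx58, the sensor RIG-I, had 407 and 389 in TRP1high with M9 and K8 and 176 and 849 in TRP1low with M9 and K8, so that only TRP1low separated the peptides. Irf9, the DNA binding subunit of the interferon-activated complex, had 1435 and 699.7 in TRP1high with M9 and K8 and 788 and 1229.7 in TRP1low with M9 and K8, an interaction of 1.68. Cxcl10, an interferon-induced chemokine of the cytokine list, had 27.4 and 41.4 in TRP1high with M9 and K8 and 14.5 and 265 in TRP1low with M9 and K8.

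**Figure D4:**
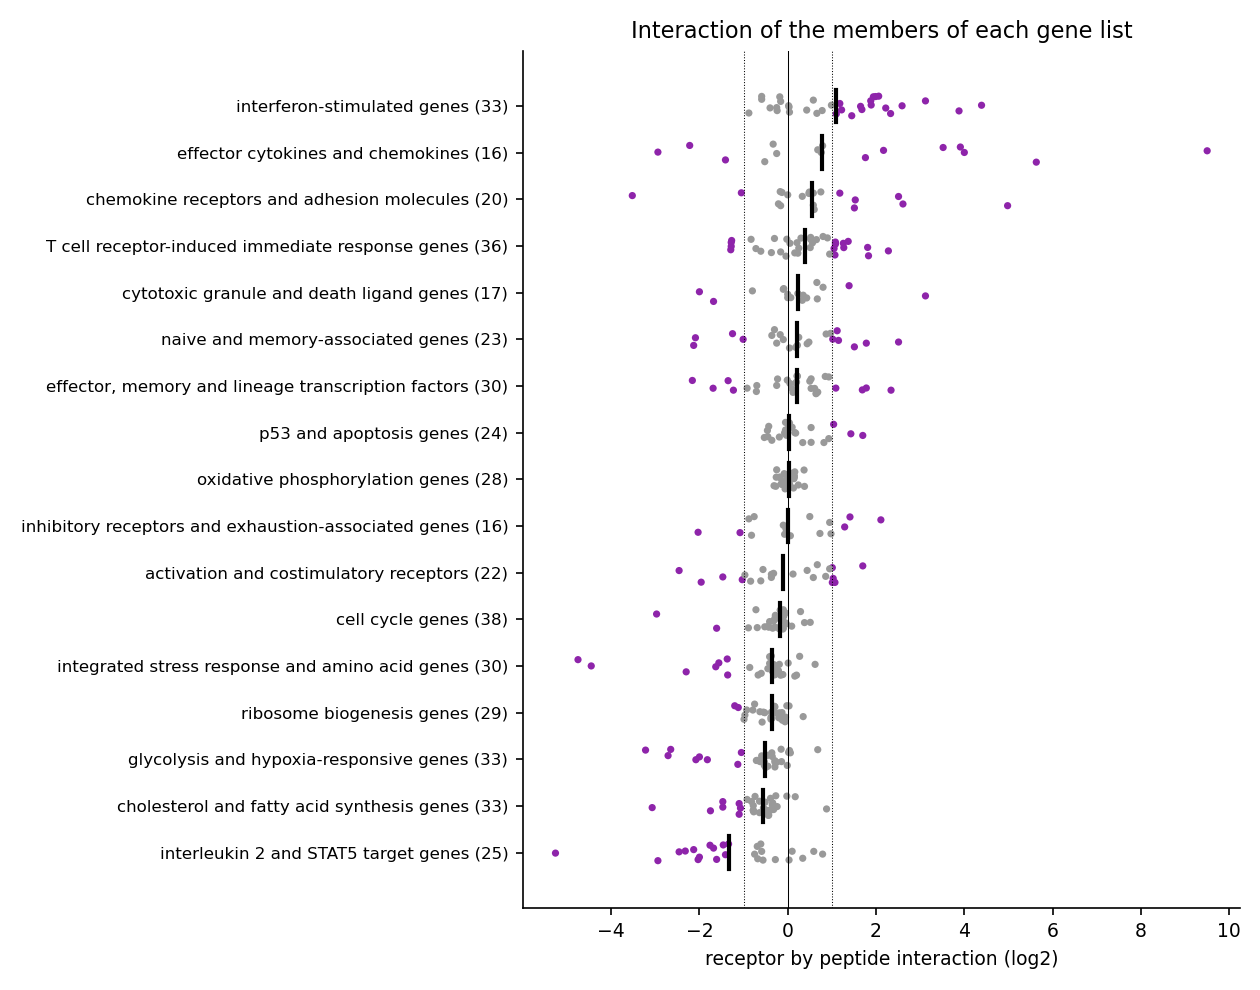
Interaction (log2) of each gene past the filter in 17 lists, ordered by median, with the number of genes in brackets, medians as black bars and genes at or beyond 1 in size in purple. Interferon-stimulated genes have the highest median, 1.1, and interleukin 2 and STAT5 target genes the lowest, -1.34.

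The p200 family of interferon-inducible HIN proteins, several of which are known to bind DNA, had 5 members among the opposite genes. These genes were picked after their values were seen. They lie in 1 cluster (chromosome 1, 173468485 to 173942672, mm10), and as close paralogs they may share reads, so the split between them is uncertain. Of 8 measured genes 7 passed the filter and 5 of these were in the class higher with M9 in TRP1high and lower in TRP1low. That class held 0.351% of all genes, and since the family was picked by its values the contrast is no separate result. In the span of the cluster 8 genes passed the filter, and 6 of them had an interaction of at least 1 (5.45% of all genes did). Ifi206 had 1293 and 264 normalized counts in TRP1high with M9 and K8, and 99.6 and 377 in TRP1low with M9 and K8, an interaction of 4.20 (3.81 to 4.58). Ifi211 had 319.6 and 50.9 in TRP1high with M9 and K8 and 29.4 and 112 in TRP1low with M9 and K8, an interaction of 4.52, while Ifi213 had 4.68, Ifi214 3.63 and Ifi209 2.80. In each, TRP1high stood above TRP1low with M9. Ifi208 was under 2-fold apart in TRP1high and 2.19 lower on the log2 scale with M9 in TRP1low, an interaction of 3.14. Ifi203 differed from them, with 1004 and 2114 normalized counts in TRP1high with M9 and K8, and 1107 and 3157 in TRP1low with M9 and K8, lower with M9 in both and an interaction of 0.44 (0.29 to 0.59).

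The 250 bases before the start of 3 of these opposite genes, of Isg15 and of Ifi203 are given to show which carry an interferon response element. Capitals mark TTTC, any 2 bases and TTTC again on either strand, which as printed here reads GAAA, any 2 bases and GAAA, and overlapping matches are joined. The letters are from RefSeq on GRCm38.p6, all on the minus strand, read toward the gene: chr1:173913047-173913296 for Ifi211, chr1:173599273-173599522 for Ifi213, chr1:173535958-173536207 for Ifi214, chr4:156200819-156201068 for Isg15 and chr1:173942673-173942922 for Ifi203.
Ifi211: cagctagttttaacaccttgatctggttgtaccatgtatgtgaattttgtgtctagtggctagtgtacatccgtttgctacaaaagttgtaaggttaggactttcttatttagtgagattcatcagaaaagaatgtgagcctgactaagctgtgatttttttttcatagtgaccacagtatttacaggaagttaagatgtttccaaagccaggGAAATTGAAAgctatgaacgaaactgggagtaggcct
Ifi213: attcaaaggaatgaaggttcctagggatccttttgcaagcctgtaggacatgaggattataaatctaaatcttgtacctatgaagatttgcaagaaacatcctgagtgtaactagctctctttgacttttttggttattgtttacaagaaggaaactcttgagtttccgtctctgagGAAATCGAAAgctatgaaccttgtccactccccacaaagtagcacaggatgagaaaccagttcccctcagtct
Ifi214: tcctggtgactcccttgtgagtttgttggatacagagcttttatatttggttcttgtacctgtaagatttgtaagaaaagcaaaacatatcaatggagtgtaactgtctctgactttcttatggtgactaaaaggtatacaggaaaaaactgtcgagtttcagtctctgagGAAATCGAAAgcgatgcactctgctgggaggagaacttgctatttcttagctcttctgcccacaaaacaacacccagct
Isg15: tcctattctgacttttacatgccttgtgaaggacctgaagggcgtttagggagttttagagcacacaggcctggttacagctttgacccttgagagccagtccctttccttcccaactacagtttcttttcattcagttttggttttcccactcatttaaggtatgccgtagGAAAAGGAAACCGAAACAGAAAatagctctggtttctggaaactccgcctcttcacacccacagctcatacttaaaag
Ifi203: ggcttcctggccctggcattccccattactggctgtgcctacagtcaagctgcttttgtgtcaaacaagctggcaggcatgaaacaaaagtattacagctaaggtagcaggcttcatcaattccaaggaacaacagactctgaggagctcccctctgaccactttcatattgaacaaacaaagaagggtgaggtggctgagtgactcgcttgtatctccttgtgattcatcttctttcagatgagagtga
Ifi211, Ifi213 and Ifi214 held 1 match each and Isg15 held 3 overlapping ones, while Ifi203 held none in this window. RefSeq gives 2 starts for Ifi203 and 1 for each other gene shown, and only the window before 1 of the 2 was searched. Of the 7 p200 genes with a promoter in the table, 5 held the motif, Ifi209 and Ifi203 being the exceptions. Of all 7972 promoters of genes past the filter 227 (2.85%) held it, and of the 23 found for interferon-stimulated genes past the filter 14 (60.9%) did. These are descriptions, since promoters were missing for many genes. A match is a stretch of letters and not a shown binding site, and no match says only that these letters are not in this window.

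Other lists had few or mixed interactions past the limit. All 28 oxidative phosphorylation genes were under 1 in size, with a median of 0.02. Of 38 cell cycle genes 2 were at or under -1 (6.11% of all genes were) and 0 at or over 1 (5.45%), with a median of -0.18. Most were small but on 1 side, with 34 of the 38 below 0, against 55.9% of all genes. Cenpe, a kinetochore motor, had 1650.4 and 1965 normalized counts in TRP1high with M9 and K8, and 724 and 109 in TRP1low with M9 and K8. Mki67, the proliferation marker, was the other gene past the limit, with an interaction of -1.61. Top2a, a topoisomerase of dividing cells, had -0.69. Of 24 p53 and apoptosis genes 3 were at or over 1 (Btg2, Bcl2l11 and Trp53inp1) and 0 at or under -1, beside 5.45% and 6.11% of all genes. Their median was 0.03. In all 3 TRP1low with K8 was the high library, as it was in 37.8% of all 574 genes at or over 1.

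Inhibitory receptor and exhaustion-associated genes were split, with 3 of 16 at or over 1 (5.45% of all genes), 2 at or under -1 (6.11%) and a median of 0.01. Ctla4, a receptor that competes for B7 ligands, had 10984 and 15101 normalized counts in TRP1high with M9 and K8, and 8491 and 2865 in TRP1low with M9 and K8, an interaction of -2.03 with TRP1low with K8 low. Klrc1, the NKG2A chain, had 415 and 39.0 in TRP1high with M9 and K8 and 49.6 and 20.0 in TRP1low with M9 and K8, an interaction of 2.11 with TRP1high with M9 high. Activation and costimulatory receptors had 5 of 22 at or over 1 (5.45% of all genes) and 4 at or under -1 (6.11%), with a median of -0.10. Tnfrsf8, the receptor CD30, was lower with M9 in both, at 37.4 and 1257 normalized counts in TRP1high with M9 and K8, and 53.1 and 455 in TRP1low with M9 and K8, an interaction of -1.96. Tnfsf11, the cytokine RANKL, had 1.70.

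Effector, memory and lineage transcription factors had 4 of 30 at or over 1 (5.45% of all genes) and 4 at or under -1 (6.11%), with a median of 0.20. Bcl6, a repressor of effector programmes, was highest in TRP1low with K8 (20.8 and 63.9 normalized counts in TRP1high with M9 and K8, 16.7 and 266 in TRP1low with M9 and K8), and Prdm1, the factor it opposes, was highest in TRP1high with K8 (47.4 and 245 in TRP1high, 72.9 and 82.7 in TRP1low, in the same order of peptides). Prdm1 is also a plasma cell marker. Zeb2, which promotes terminal effector cells, was highest in TRP1high with M9, with an interaction of 1.78. Of 23 naive and memory-associated genes 6 were at or over 1 (5.45% of all genes) and 4 at or under -1 (6.11%), with a median of 0.22. Igfbp4 and Dapl1, transcripts of naive cells, were split mainly by receptor: Dapl1 had 4207 and 1876 normalized counts in TRP1high with M9 and K8, and 304 and 468 in TRP1low with M9 and K8.

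Markers of the stimulating B cells differed by receptor and peptide too. Of 25 measured B cell markers 14 passed the filter. Of these, 8 had an interaction of at most -1 (6.11% of all genes did) and 0 of at least 1 (5.45%), with a median of -1.57. Their summed level was 18036 and 22921 normalized counts in TRP1high with M9 and K8, and 18454 and 21891 in TRP1low with M9 and K8. Ighm alone made up most of that sum. Cd79a, a chain of the B cell receptor complex, had 2.97 and 145 normalized counts in TRP1high with M9 and K8, and 28.3 and 95.7 in TRP1low with M9 and K8. Igkc, the kappa light chain, had 8.91 and 449 in TRP1high with M9 and K8 and 74.5 and 531 in TRP1low with M9 and K8, and H2-Aa, an MHC class II chain, had an interaction of -3.45. Both M9 libraries were low, and TRP1high with M9 was the lowest, with 5 markers at 0, among them Pax5. Without marker genes and receptor segments the counts of interactions were 565 at or over 1 and 628 at or under -1.

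**Figure D5:**
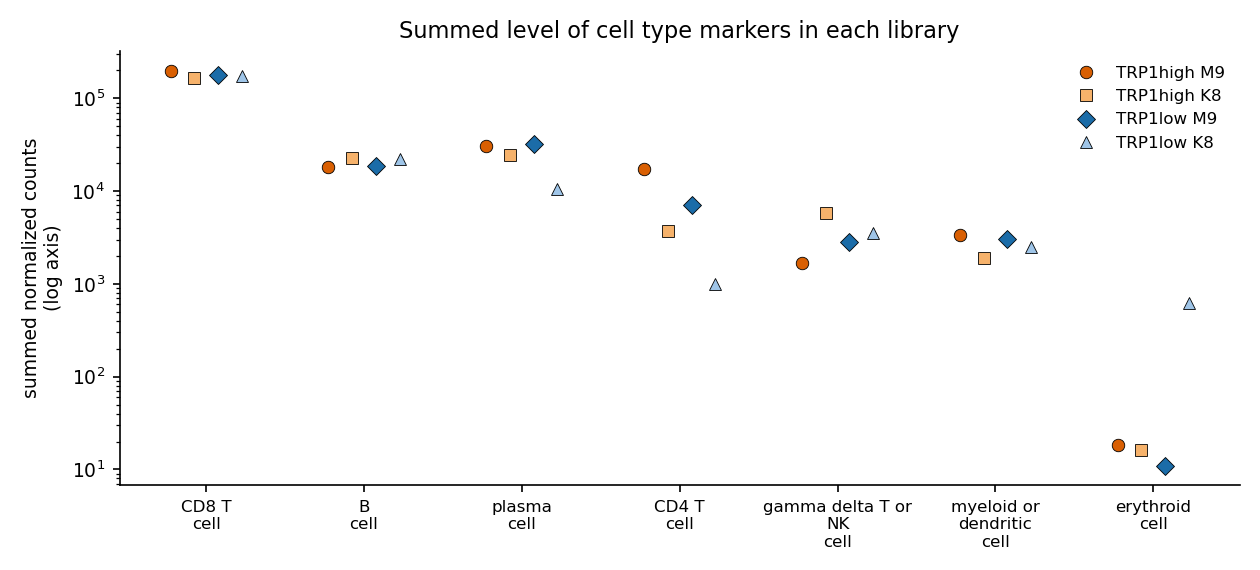
Summed normalized counts of cell type markers (log axis) in TRP1high with M9, TRP1high with K8, TRP1low with M9 and TRP1low with K8, 1 library per point. CD8 T cell markers lie between 166881 and 199082 in all 4 libraries, and erythroid markers are at 616 in TRP1low with K8 and at most 18.4 in the others.

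Gamma delta T or NK cell markers summed to 1673 and 5752 normalized counts in TRP1high with M9 and K8, and to 2808 and 3561 in TRP1low with M9 and K8, and 3 of 5 past the filter were at or under -1. Eomes, also a member of the effector transcription factor list, was 1 of these 3. It held 792 and 2156 of the counts in TRP1high with M9 and K8, and 1960.4 and 2273 in TRP1low with M9 and K8. Tcrg-C4, a gamma chain constant gene, had 227 and 1446 in TRP1high with M9 and K8 and at most 3 reads in TRP1low, so no peptide difference can be given there. Trdc, the delta chain constant gene, had an interaction of 0.03. The plasma cell sums were 30363 and 24561 in TRP1high with M9 and K8, and 32453 and 10407 in TRP1low with M9 and K8, carried by Irf4 and Xbp1, which activated T cells also express, and 3 of 4 markers were at or under -1. The CD4 T cell sums were 17263 and 3718 in TRP1high with M9 and K8, and 7059.9 and 1008 in TRP1low with M9 and K8, almost all of it Tnfrsf4, which activated CD8 T cells express as well, and 1 of 2 was at or under -1. Myeloid or dendritic markers summed to 3358 and 1885 in TRP1high with M9 and K8, and to 3043 and 2487 in TRP1low with M9 and K8, with 1 of 2 at or over 1. Over all genes past the filter, 5.45% were at or over 1 and 6.11% at or under -1.

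Transcript length and level also moved with the interaction. Of 550 coding genes with a transcript of at least 8000 bases, 16.2% had an interaction of at most -1 and 5.82% of at least 1, with a median of -0.21. In the shortest group, under 2000 bases, these shares were 4.15% and 4.46%. Long transcripts made up 16.9% of coding genes higher with M9 in TRP1low alone, against 5.55% of all coding genes, and Mki67 was among them. By highest normalized count in any library, 26.6% of genes at 100 to 500 had an interaction of at least 1 in size, and 4.94% did at 2000 and more. The part of RNA length or quality in the genes low in TRP1low with K8 was not tested.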

How the data were processed

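RNA sequencing of 4 libraries gave 1 value per gene and library, which the authors deposited as log2 normalized counts, per the file headers. Per the submitters' processing notes the authors used Salmon 0.8.2, DESeq2 1.20.0 and the build mm10, with no settings stated there. The smallest value was exactly 0, so the unit was read as log2(normalized count + 1), and differences on it understate those of low genes. Low values lay on steps worth 0.989, 0.998, 1.05 and 1.37 normalized counts per read in TRP1high with M9, TRP1high with K8, TRP1low with M9 and TRP1low with K8. Between 55.2% and 56.5% of values up to 50 reads were within 0.01 of a whole read, so whole reads were not recovered and no count model was run. A library at 0 reads was set to a floor of 3 reads per library for folds, and no fold is given where both libraries were at or under it. Folds of single genes are ratios of normalized counts, with exact binomial 95% intervals on estimated reads; intervals of interactions treat the reads as Poisson counts with a normal approximation, and both cover counting error only.

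Differences and interactions were computed in Python 3.11.15 with pandas 2.3.3, numpy 2.4.6 and scipy 1.17.1, and tested on simulated counts. Of the 16338 rows, 16196 (99.1%) matched a symbol of GENCODE M21, used for positions, types and transcript lengths, and 20 rows had date-like names. With 1 library per group, no test, SD or replicate check was possible. The members, the 17 gene lists, the 7 marker lists and the rules were chosen with earlier results of these data known. Named genes were, after the floor and among protein-coding genes other than histones, receptor segments and unnamed models, the 4 of largest interaction in each one-receptor and each opposite class, the 3 of largest shared difference in each shared class, up to 4 per list among those at least 1 in size, and 8 defining markers; Ifng, Ccl3, Ccl4, Lif, Cxcl10, Rel, Egr3, Irf4, Cish, Pim1, Usp18, Trim30a, Oas3, Cmpk2, Ifih1, Ddx58, Irf9, Hba-a1, Igkc, H2-Aa, Tcrg-C4, Tnfsf4, Top2a, the p200 genes and the remaining list members named without a rule were chosen after their values were seen. Some genes that these rules name are not reported here. Promoters from RefSeq covered 75.7% of the genes, too few to compare motif shares between classes.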

Additional observations from a re-analysis of the deposited data

Results flagged for a closer look

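These genes had M9 and K8 at least 2-fold apart in opposite directions in the receptors, each receptor being 1 pair of libraries, and the difference between the receptors was not tested. Higher with M9 in TRP1high and lower in TRP1low were Stard13, with an interaction of 8.98, Lgals3 with 7.73, Itga2b with 9.34, Ccr8 with 4.98, Irf7 with 4.39 and Ifih1 with 2.22 on the log2 scale. The p200 genes Ifi206 (4.20), Ifi209 (2.80), Ifi211 (4.52), Ifi213 (4.68) and Ifi214 (3.63) went the same way. Lower with M9 in TRP1high and higher in TRP1low were Pkib, with -6.68, Zbtb38 with -5.61, Tgm2 with -5.54, Capn5 with -5.40, Socs2 with -5.26 and Stc2 with -4.75. For Itga2b and Stc2 a library held 1 or 2 reads, and Ifih1 was near the 2-fold limit in both receptors, with differences of 1.16 and -1.06.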

How the results depend on the processing

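No paired analysis was possible because each group held 1 library, and without any single library no interaction can be computed, so no replicate was left out. With at least 500 normalized counts in 1 library, 263 genes had an interaction of at least 1 and 337 of at most -1; the classes held 69 and 66 genes higher and lower with M9 in both receptors, 11 and 9 in opposite directions (TRP1high higher, TRP1high lower), 79 and 72 in TRP1high only and 248 and 187 in TRP1low only, and the libraries standing apart were TRP1high with M9 for 69, TRP1high with K8 for 65, TRP1low with M9 for 53 and TRP1low with K8 for 304 genes (50.7%). At a limit of 4-fold the interactions numbered 157 and 178, and the classes, in the same order, 34, 36, 7, 3, 58, 55, 142 and 109. With at least 100 normalized counts in each receptor's pair, 86 genes were lower in both and 22 and 13 opposite, and with at least 50 in 1 library 61 and 40 were opposite. Of 130 recomputed counts over all genes, 101 were within 1.5 times the value reported, as were 263 of 272 list counts, and 135 of 136 list medians moved little. The list counts that moved were, at 500 normalized counts, effector cytokines at or over 1 (3, against 7), transcription factors at or over 1 (1, against 4) and stress response genes at or under -1 (4, against 7); without long transcripts, transcription factors at or over 1 (2, against 4), and chemokine receptors, cell cycle and ribosome biogenesis genes at or under -1 (1 each, against 2); and at 50 normalized counts, cytotoxic genes at or over 1 (4, against 2) and interferon-stimulated genes at or under -1 (1, against 0). Positive interactions were 47.2% of those past the limit, from 43.8% at 500 normalized counts upward, with the highest share under upper quartile scaling, at 599 positive and 598 negative; centring or scaling shifted no library by more than 0.03 and left a median interaction of -0.02. Leaving out transcripts of at least 8000 bases, or genes at 3 reads or less in a library, both chosen after seeing the data, gave 542 and 554, and 537 and 592, interactions. Of 472 values of named genes, 455 stayed inside the gene's own 95% counting interval, 15 moved outside it and 2 reversed. That interval is wide where a library held few reads, so genes near 0 reads could hardly fail this rule. With values under 3 reads raised to 3 reads, Ccl1 went from 9.50 to 5.45, Impg2 from 8.32 to 5.18 and Pax5 from -9.87 to -7.88. These still counted among the 455. Both reversed values were of Cd4, which is under the filter. Cd4 had -1.19 as deposited, 0.45 with values under 3 reads raised to 3 reads and 0.05 with 10 added in place of 1. Depth limits TRP1low with K8 most, where 3 reads lie at log2 2.35, and 88 of the 1217 genes had a library at 3 reads or less.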
